A study of Mus musculus with 9 samples.

Results

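The 10 genes described here encode secreted or membrane-bound messengers that fibroblasts use to call and feed white blood cells: the chemokines Cxcl10, Ccl5, Ccl2, Ccl7, Cxcl1, Cxcl5, Cxcl12 and Cx3cl1, and the cytokines Il6 and Csf1. They were taken by gene symbol, through the Ensembl identifier of each row, from a table of estimated RNA sequencing counts with 52661 gene rows. The symbols were picked with earlier results of these data known, so the values and p-values given for them are a description and not independent evidence. All 10 had a row, and all 10 were among the 18408 genes that passed a filter on low counts.

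The cells were mouse embryonic fibroblasts of strain C57BL/6, a culture of mixed connective-tissue cells. The Ctr1-null + BCS group holds 3 libraries of cells labelled Ctr1 -/- that received bathocuproine disulfonic acid (BCS), an extracellular copper chelator, for 48 hours. Its dose was 500 uM in the sample labels but 500 mM in the series' own design text. The Ctr1-null group holds 3 libraries of Ctr1 -/- cells with no treatment listed, and the wild type group holds 3 libraries of cells with intact Ctr1, the high-affinity copper importer encoded by Slc31a1. The titles of both Ctr1-null groups call the cells FloxedCtr1, and how the allele was deleted is not given in the sources used here. All 3 groups had been immortalised with T/t antigen of the SV40 virus and were grown in a medium with an N2 supplement and EGF and FGF-2 at 10 ng/ml each, and BCS was given to Ctr1-null cells only. The labels do not say that the replicates were separate cultures, so the p-values measure only the spread between these libraries. Fewer cells that make a transcript and less of it per cell cannot be told apart in such bulk RNA.

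Chemokines bind G protein-coupled receptors on white blood cells and draw them along a gradient. The inducible ones are made when NF-kB, interferon regulatory factors or AP-1 act on their promoters, as after sensing of microbes, foreign nucleic acid, interleukin-1 or tumour necrosis factor, and cultured fibroblasts are a classic source. Cxcl12, Csf1 and, in many tissues, Cx3cl1 are instead made without such a stimulus and hold stem cells, macrophages and microglia in place.

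Library totals ran from 38962036 to 57206337 counts. Levels are given in CPM, counts scaled by TMM to a common library total, and 3 counts, the most that a count of 0 allows, are 0.0546 to 0.0811 CPM. Slc31a1 stood at 3.24, 2.54 and 1.69 CPM in Ctr1-null + BCS, 2.54, 3.88 and 1.40 CPM in Ctr1-null and 56.1, 54.8 and 54.9 CPM in wild type, so every library matched its genotype label. Wild type replicate 1 nevertheless stood apart from the other wild type libraries. On the first principal component of all genes, which held 46.2% of the variance, it lay at -2.04, against 67.1 and 63.3 for wild type replicates 2 and 3, -46.5 to -19.3 for Ctr1-null + BCS and -32.0 to 9.05 for Ctr1-null. Fold changes of the 10 members against wild type, the genes called in the lists below and the counts of calls are therefore given with and without it. It was singled out from these values, and leaving out a wild type library that lies toward the null libraries favours calls against wild type. Genes called went from 2 to 3254 in Ctr1-null against wild type and from 2916 to 5840 in Ctr1-null + BCS against wild type. Results without it thus describe the weight of this library and are not firmer evidence. Of 11 fibroblast markers, whose levels summed to 16370 to 19852 CPM in Ctr1-null + BCS, 15469 to 18493 CPM in Ctr1-null and 16477 to 18518 CPM in wild type, none was called in any comparison with 9 libraries. When wild type replicate 1 was left out, 3 of the 10 tested were called in each comparison with wild type. Of all genes, 31.0% were then called in Ctr1-null + BCS against wild type and 17.3% in Ctr1-null against wild type. Among the markers called was Pdgfra, a receptor of platelet-derived growth factor, with 38.6, 42.7 and 46.5 CPM in Ctr1-null + BCS, 41.2, 36.2 and 94.97 CPM in Ctr1-null, and 65.3, 6.11 and 6.62 CPM in wild type. Dcn, Lum and Thy1, which many fibroblasts express strongly, did not exceed 2.31, 0.248 and 0.496 CPM in any library.

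Among the members, Cxcl10 carried the widest range between libraries, and its promoter is shown first because its level separated the genotypes most. RefSeq promoter windows (GRCm38.p6, 250 bases before to 50 after the start site) were found for 6 of the 10 members. Windows for Ccl2, Ccl7, Ccl5 and Cxcl5 were not used here. Both strands were searched for the NF-kB consensus, for the paired half-site of interferon regulatory factors (GAAA, then NN, then GAAA), for the AP-1 site TGANTCA and for TATAAA. Of 32851 windows, 8.46% held the NF-kB consensus, 3.44% the paired half-site, 7.81% TGANTCA and 13.6% TATAAA. The 250 upstream bases follow for Cxcl10, for Cxcl1 and Csf1, which also hold NF-kB letters, and for Cxcl12, which holds none of these motifs. Capitals mark the NF-kB consensus and the paired half-site, 5′ to 3′ on the strand of the gene.
Cxcl10 (chr5:92348890-92349139, minus strand): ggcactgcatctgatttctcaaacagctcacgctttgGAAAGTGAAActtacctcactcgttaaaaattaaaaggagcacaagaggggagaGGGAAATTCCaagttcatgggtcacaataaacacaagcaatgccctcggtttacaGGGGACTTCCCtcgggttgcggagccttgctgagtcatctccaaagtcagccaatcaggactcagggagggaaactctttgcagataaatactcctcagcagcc
Cxcl1 (chr5:90890995-90891244, plus strand): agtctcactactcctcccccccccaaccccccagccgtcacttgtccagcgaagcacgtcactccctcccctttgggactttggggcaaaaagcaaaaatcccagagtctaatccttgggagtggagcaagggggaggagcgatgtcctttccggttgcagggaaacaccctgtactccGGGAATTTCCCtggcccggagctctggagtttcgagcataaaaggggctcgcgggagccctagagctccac
Csf1 (chr3:107760470-107760719, minus strand): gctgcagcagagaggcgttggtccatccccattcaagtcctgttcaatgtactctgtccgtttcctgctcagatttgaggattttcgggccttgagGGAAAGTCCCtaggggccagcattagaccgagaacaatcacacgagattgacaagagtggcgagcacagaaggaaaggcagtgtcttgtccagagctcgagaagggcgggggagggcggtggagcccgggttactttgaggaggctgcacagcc
Cxcl12 (chr6:117168285-117168534, plus strand): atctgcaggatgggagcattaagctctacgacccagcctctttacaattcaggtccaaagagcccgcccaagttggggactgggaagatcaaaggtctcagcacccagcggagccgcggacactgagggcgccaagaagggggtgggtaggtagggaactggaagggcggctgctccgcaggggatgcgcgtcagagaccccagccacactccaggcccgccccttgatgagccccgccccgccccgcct
In Cxcl10, the NF-kB letters lay at 2 places, 159 to 150 and 104 to 94 bases before the start site, where overlapping matches on either strand are counted as 1 place. The paired GAAA half-site lay 213 to 204 bases and TGANTCA 74 to 68 bases before it. Cxcl1 held the NF-kB consensus 71 to 61 bases before its start, Il6 44 to 35 bases, and Csf1, on the opposite strand, 154 to 145 bases. A TGANTCA match also lay 249 to 243 bases before the start of Il6, and TATAAA 6 to 1 bases before the RefSeq start of Cx3cl1. These are matches of letters, with no measurement of binding.

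Cxcl10 (ENSMUSG00000034855.13, GRCm38 chr5:92346638-92348889, minus strand) encodes the interferon-inducible ligand of CXCR3, which attracts activated T cells. Its level was 4.93, 5.15 and 4.24 CPM in Ctr1-null + BCS, 2.89, 6.26 and 5.68 CPM in Ctr1-null, and 13.9, 50.4 and 49.5 CPM in wild type. Every copper-importer-null library was below every wild type library, and wild type replicate 1 lay between the null libraries and the other wild type libraries. The mean in Ctr1-null + BCS was 12.6% of the wild type mean and 34.4% of wild type replicate 1. In Ctr1-null it was 13.0% of the wild type mean and 35.6% of wild type replicate 1.

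Cxcl10 fell by 2.99 ± 0.46 (SE) on the log2 scale in Ctr1-null + BCS against wild type (adjusted p = 0.00663 by edgeR), and this call held when any single library was left out (adjusted p from 3.1e-04 to 0.0380). Its log2 fold change in Ctr1-null against wild type was -2.94 ± 0.46 and missed the threshold of 0.05 (adjusted p = 0.0707). Without wild type replicate 1 that comparison passed, with a log2 fold change of -3.34 and an adjusted p of 0.000523. Between Ctr1-null + BCS and Ctr1-null the log2 fold change was -0.050, with a 95% interval from -1.06 to 0.96, so changes of up to about 1 log2 unit in either direction lie within the error of this estimate.

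Ccl5 (ENSMUSG00000035042.2, GRCm38 chr11:83525778-83530518, minus strand), which encodes RANTES, an attractant of T cells and monocytes, was also highest in wild type. It was measured at 1.97, 1.89 and 3.15 CPM in Ctr1-null + BCS, 0.734, 1.88 and 1.94 CPM in Ctr1-null, and 3.16, 9.43 and 9.33 CPM in wild type. Ctr1-null + BCS replicate 3 and wild type replicate 1 nearly touched, at 3.15 and 3.16 CPM, while the other wild type libraries were clear of all null libraries. Ccl5 fell in Ctr1-null + BCS against wild type, with a log2 fold change of -1.65 ± 0.46 (adjusted p = 0.0403).

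That Ccl5 call was lost when any of 6 libraries was left out: adjusted p was 0.129, 0.106 and 0.0832 without Ctr1-null + BCS replicates 1, 2 and 3, 0.0584 without Ctr1-null replicate 2, and 0.131 and 0.139 without wild type replicates 2 and 3. Without wild type replicate 1 it became -2.02 (adjusted p = 0.00363). In Ctr1-null against wild type the log2 fold change of Ccl5 was -2.26 ± 0.48 (adjusted p = 0.0988), and without wild type replicate 1 it was -2.63 (adjusted p = 0.00242). Between Ctr1-null + BCS and Ctr1-null it was 0.62, with a 95% interval from -0.43 to 1.67.

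Ccl2 and Ccl7 encode the monocyte attractants MCP-1 and MCP-3, which act through CCR2, and they are neighbours on chromosome 11, 8258 bases apart. Ccl2 (ENSMUSG00000035385.5, chr11:82035571-82037453, plus strand) stood at 16.5, 21.3 and 10.2 CPM in Ctr1-null + BCS, 40.0, 30.1 and 26.1 CPM in Ctr1-null, and 28.6, 36.6 and 37.0 CPM in wild type. All chelator-treated libraries were below all others, and the untreated null libraries overlapped wild type. The Ctr1-null + BCS mean was 47.1% of the wild type mean, and the Ctr1-null mean 94.3% of it.

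Ccl2 fell in Ctr1-null + BCS against wild type, with a log2 fold change of -1.09 ± 0.25 (adjusted p = 0.0215). Leaving out 1 library ended this call 4 times, with adjusted p of 0.0712 and 0.0614 without Ctr1-null + BCS replicates 1 and 3 and 0.0765 and 0.0824 without wild type replicates 2 and 3. Without wild type replicate 1 its adjusted p was 0.00945. Against Ctr1-null the log2 fold change was -1.001 ± 0.25, with a 95% interval from -1.56 to -0.44, but it missed the threshold over all genes (adjusted p = 0.143). In Ctr1-null against wild type it was -0.085 ± 0.25, with an interval from -0.64 to 0.47, and -0.20 without wild type replicate 1.

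Ccl7 (ENSMUSG00000035373.2, chr11:82045712-82047525, plus strand) was measured at 18.0, 27.2 and 15.8 CPM in Ctr1-null + BCS, 24.3, 26.6 and 20.4 CPM in Ctr1-null, and 22.7, 47.8 and 43.2 CPM in wild type. Only wild type replicates 2 and 3 stood above the rest, and wild type replicate 1 was within the range of the null libraries. The log2 fold change was -0.89 ± 0.28 in Ctr1-null + BCS against wild type (adjusted p = 0.0563), -0.67 ± 0.28 in Ctr1-null against wild type (adjusted p = 0.256) and -0.22, with an interval from -0.84 to 0.40, between the null groups. Both comparisons with wild type passed without wild type replicate 1, at -1.17 (adjusted p = 0.00397) for Ctr1-null + BCS and -0.94 (adjusted p = 0.0158) for Ctr1-null, and the first of them also without Ctr1-null + BCS replicate 2 (adjusted p = 0.0391). With all 9 libraries that first comparison passed by DESeq2 (adjusted p = 0.00816) and in edgeR with no filter on low counts (adjusted p = 0.0177). The difference between the chelator changes of Ccl2 and Ccl7 was not tested. The other genes of this cluster, Ccl11, Ccl12, Ccl8 and Ccl1, did not exceed 0.0541 CPM in any library.

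**Figure D1:**
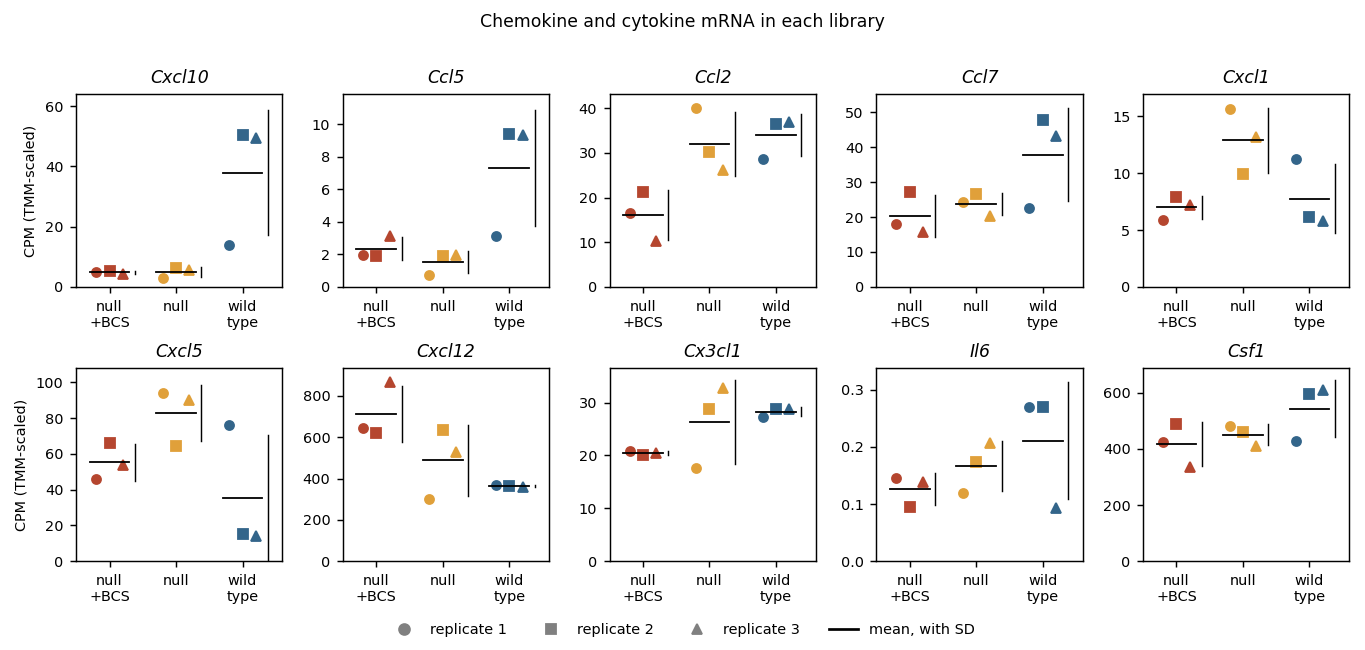
Level of each gene in CPM (linear axes from 0), with 1 point per library by group, the mean as a line and 1 SD as a bar beside the points, cut at 0 where it would go below. In Cxcl10, Ccl5, Ccl7, Cxcl1 and Cxcl5, the wild type replicate 1 circle lies nearer to the Ctr1-null libraries than to the other wild type libraries, whereas Ccl2 is lowest in the 3 Ctr1-null + BCS libraries.

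Cxcl1 and Cxcl5 encode ligands of CXCR2 that attract neutrophils, and both sit in a cluster on chromosome 5. Cxcl5 (ENSMUSG00000029371.7, chr5:90759360-90761624, plus strand) was at 45.8, 66.2 and 53.6 CPM in Ctr1-null + BCS, 94.0, 64.7 and 90.0 CPM in Ctr1-null, and 76.0, 15.3 and 13.9 CPM in wild type. Within wild type, replicate 1 was 5.20 times the mean of replicates 2 and 3, and the other wild type libraries were below all 6 null libraries. The wild type coefficient of variation, 101%, was the highest of any member in any group.

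With 9 libraries the log2 fold change of Cxcl5 was 0.65 ± 0.55 in Ctr1-null + BCS against wild type (adjusted p = 0.445) and 1.24 ± 0.56 in Ctr1-null against wild type (adjusted p = 0.286). Without wild type replicate 1 both comparisons passed, at 1.91 (adjusted p = 0.000615) and 2.50 (adjusted p = 0.000584). Between the null groups it was -0.59, with an interval from -1.81 to 0.64.

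Cxcl1 (ENSMUSG00000029380.11, chr5:90891241-90893115, plus strand) was at 5.91, 7.91 and 7.19 CPM in Ctr1-null + BCS, 15.6, 9.90 and 13.2 CPM in Ctr1-null, and 11.3, 6.19 and 5.84 CPM in wild type. The chelator-treated libraries were all below the untreated null libraries, and wild type replicate 1 again lay with the untreated null libraries. The log2 fold change between the null groups was -0.88 ± 0.26, with an interval from -1.47 to -0.29 (adjusted p = 0.194). In Ctr1-null against wild type it was 0.73 ± 0.26 (adjusted p = 0.210), and 1.10 (adjusted p = 0.00826) without wild type replicate 1. Against wild type it was -0.15 ± 0.26 in Ctr1-null + BCS, and its sign turned, to 0.21, without wild type replicate 1.

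Cxcl12 (ENSMUSG00000061353.11, GRCm38 chr6:117168535-117181367, plus strand), the stromal ligand of CXCR4 that retains stem cells and lymphocytes, was the only member called higher by edgeR with 9 libraries. It stood at 644, 622 and 869 CPM in Ctr1-null + BCS, 301, 637 and 528 CPM in Ctr1-null, and 369, 363 and 358 CPM in wild type. The chelator-treated group was above wild type in every library, wild type varied by only 1.49% of its mean (SD), and the untreated null libraries spread over both. Against wild type the log2 fold change in Ctr1-null + BCS was 0.97 ± 0.24 (adjusted p = 0.0256).

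This Cxcl12 call did not depend on wild type replicate 1 (0.97 and adjusted p = 0.0251 without it). It was lost without Ctr1-null + BCS replicate 1 (adjusted p = 0.0630) or 3 (0.104) and without wild type replicate 2 (0.0864) or 3 (0.0928). The log2 fold change was 0.43 ± 0.23 in Ctr1-null against wild type (adjusted p = 0.363, and 0.44 without wild type replicate 1) and 0.54 ± 0.23 in Ctr1-null + BCS against Ctr1-null (adjusted p = 0.324).

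Cx3cl1 (ENSMUSG00000031778.13, GRCm38 chr8:94772009-94782427, plus strand) encodes fractalkine, a membrane-tethered chemokine that is shed by metalloproteases and binds CX3CR1. Its level was 20.9, 20.1 and 20.5 CPM in Ctr1-null + BCS, 17.5, 28.7 and 32.8 CPM in Ctr1-null, and 27.3, 28.8 and 28.7 CPM in wild type. Libraries lay close together within Ctr1-null + BCS and within wild type but not within Ctr1-null. The chelator-treated libraries were all below wild type, with a log2 fold change of -0.46 ± 0.18 that missed the threshold (adjusted p = 0.115). It passed in a fit of only these 2 groups (adjusted p = 0.0142) and without Ctr1-null replicate 1 (adjusted p = 0.00827), and without wild type replicate 1 it was -0.49 (adjusted p = 0.0979). For Ctr1-null against wild type it was -0.10, and -0.13 without wild type replicate 1. Ctr1-null replicate 1 was the lowest of its group for Cxcl10, Ccl5, Cxcl12, Cx3cl1 and Il6 and the highest for Ccl2, Cxcl1, Cxcl5 and Csf1.

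Csf1 (ENSMUSG00000014599.10, GRCm38 chr3:107741048-107760469, minus strand), the growth and survival factor of macrophages, was at 425, 490 and 335 CPM in Ctr1-null + BCS, 482, 460 and 410 CPM in Ctr1-null, and 427, 595 and 610 CPM in wild type. The 3 groups overlapped, with wild type replicates 2 and 3 on top. The log2 fold change was -0.39 ± 0.17 in Ctr1-null + BCS against wild type (adjusted p = 0.137), and -0.54 (adjusted p = 0.0205) without wild type replicate 1. It was -0.27 ± 0.17 in Ctr1-null against wild type, where it was -0.42 (adjusted p = 0.0724) without wild type replicate 1, and -0.11 ± 0.16 between the null groups.

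Il6 (ENSMUSG00000025746.11, GRCm38 chr5:30013114-30019981, plus strand), an inflammatory cytokine that many activated fibroblasts secrete, was barely detected. It had 0.146, 0.0946 and 0.139 CPM in Ctr1-null + BCS, 0.119, 0.174 and 0.207 CPM in Ctr1-null, and 0.270, 0.270 and 0.0929 CPM in wild type. These are 5 to 13 counts per library, and the 95% interval of its log2 fold change in Ctr1-null + BCS against wild type ran from -1.73 to 0.35. That fold change was -0.69, and -0.44 without wild type replicate 1. Between Ctr1-null and wild type it was -0.30, and -0.043 without that library.

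Counted together, 0 of the 10 members passed in Ctr1-null against wild type, where 0.0109% of all genes tested did, and 4 had an unadjusted p under 0.05, against 17.6% of all genes. By DESeq2, 2 members passed there, and 6.49% of the genes with an adjusted p. Their groups did not overlap for 2 members, both lower in Ctr1-null, while 8.62% of all genes were lower and 9.49% higher in every library. Between Ctr1-null + BCS and Ctr1-null, 0 members passed, where 0.0543% of all genes did. Of the members 3 had there an unadjusted p under 0.05, against 14.7% of all genes, 2 passed by DESeq2, against 4.25%, and 2 were lower in every library, against 10.9%.

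In Ctr1-null + BCS against wild type, 4 of 10 members passed, 1 higher and 3 lower, where 15.8% of all genes did, 8.56% higher and 7.28% lower. By DESeq2, 5 members passed, against 21.3% of all genes. The edgeR count was 1 without Ctr1-null + BCS replicate 1 or 3 or wild type replicate 2 or 3. Groups did not overlap for 4 members that were lower, against 17.1% of all genes, and for 1 that was higher, against 20.0%. Without wild type replicate 1, 7 members passed in this comparison, against 31.0% of all genes, 5 passed in Ctr1-null against wild type, against 17.3%, and 0 in Ctr1-null + BCS against Ctr1-null, against 0.972%. The members were chosen with these comparisons known, so nothing is read from the counts. The comparisons share libraries pairwise and are not independent of each other.

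**Figure D2:**
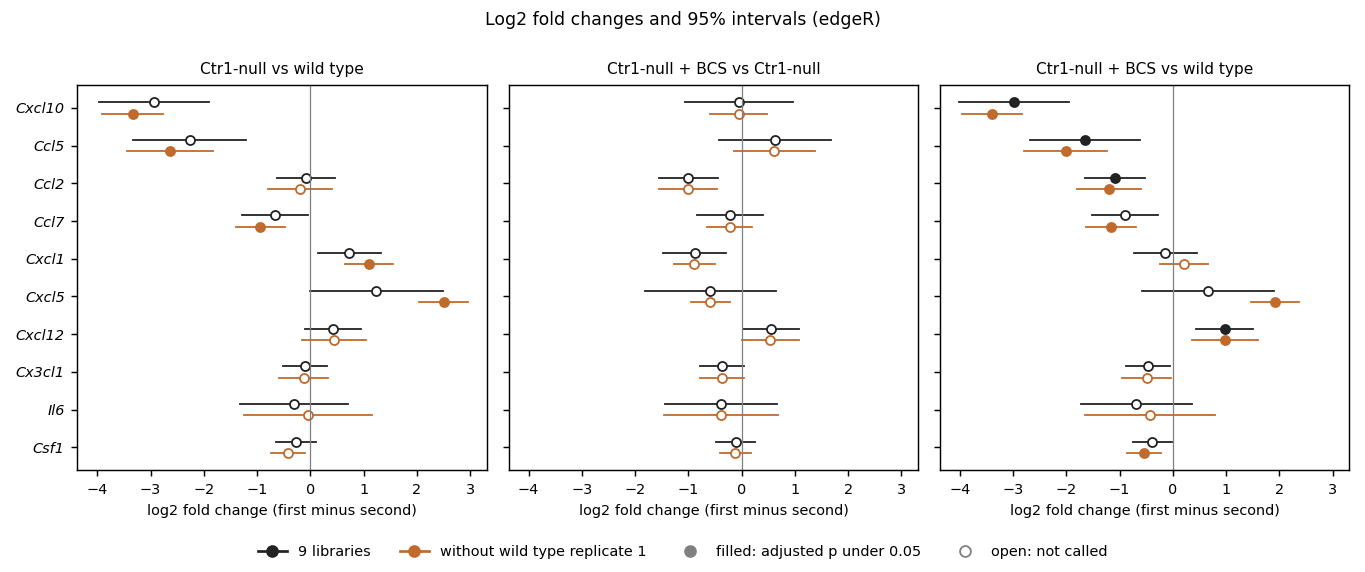
Log2 fold change (x axis, first group minus second) of each gene in the 3 comparisons, with 95% intervals, from all 9 libraries (black) and without wild type replicate 1 (orange). Filled points have an adjusted p under 0.05. The Cxcl5 estimate moves by over 1 log2 unit without wild type replicate 1 in both comparisons with wild type, and that of Cxcl12 in Ctr1-null + BCS against wild type stays at 0.97.

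Divided by the length of annotated exon, levels of the members spanned a wide range. This length is the union of all annotated exons of a gene, 8.176 kb for Cxcl12 and 5.281 kb for Csf1. Which transcripts were expressed was not examined, so the order between genes depends on the annotation. Mean levels per kb over 9 libraries were 89.1 CPM per kb for Csf1, 63.8 for Cxcl12, 34.1 for Ccl7, 31.0 for Cxcl5, 24.1 for Ccl2, 7.05 for Cxcl10, 6.37 for Cx3cl1, 4.92 for Cxcl1, 3.88 for Ccl5 and 0.0692 CPM per kb for Il6. The order depended on the group. Cxcl12 had a mean of 87.1 CPM per kb in Ctr1-null + BCS, above the 78.9 CPM per kb of Csf1, though the libraries overlapped, whereas in wild type Csf1 had 103 CPM per kb and Cxcl12 44.4, with no overlap. Cxcl10 had 16.8 CPM per kb in wild type, above Cx3cl1 at 7.19, but 2.12 CPM per kb in Ctr1-null + BCS, below Cx3cl1 at 5.22.

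**Figure D3:**
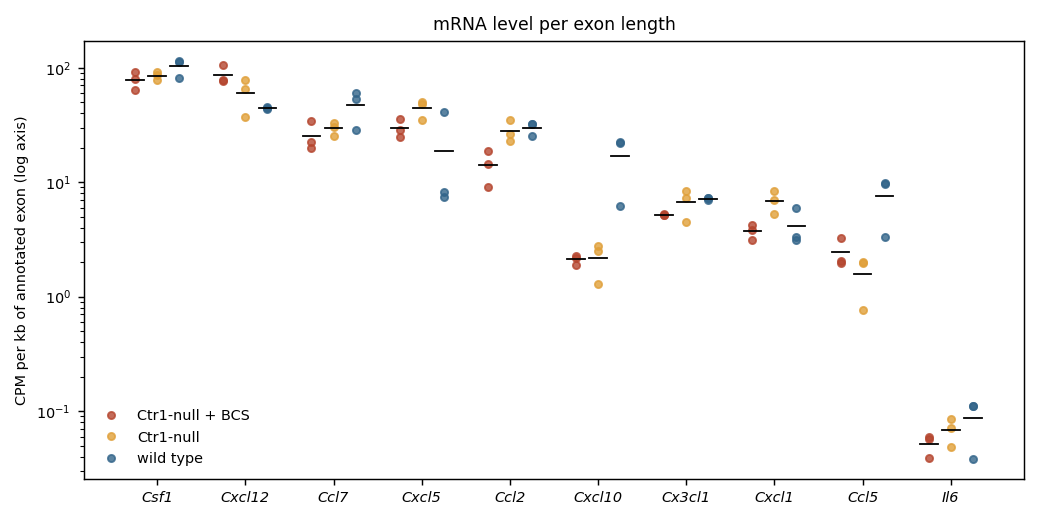
Level of each gene per kb of annotated exon (log axis), with 1 point per library and the group mean as a line, ordered by the mean over all 9 libraries. Il6 lies at the bottom in all 3 groups, Csf1 and Cxcl12 lie at the top in the 2 null groups, and Ccl7 lies just above Cxcl12 in wild type. Cxcl10 shows a gap between the 2 null groups and wild type. For Ccl5 the highest Ctr1-null + BCS library (3.28 CPM per kb) and the lowest wild type library (3.29) nearly touch.

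The rest of the chemokine family was mostly silent. Of 30 other ligands, 11 passed the filter on low counts and 3 had no counts in any library. None of the 11 was called in any comparison with 9 libraries, with 4 at an unadjusted p under 0.05 in Ctr1-null + BCS against wild type, as were 32.9% of all genes, and their median log2 fold change there was 0.59, against 0.0065 for all genes tested. The highest were Ccl25, a gut-homing chemokine, at 6.35 to 7.88 CPM, and Ccl27a, a skin chemokine with near-identical copies whose reads cannot be assigned with certainty, at 4.58 to 7.37 CPM. Their log2 fold changes in Ctr1-null + BCS against wild type were -0.14 and 0.18. No other tested ligand exceeded 3.66 CPM in any library, so the median rests mostly on genes at low levels.

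The neighbours of the neutrophil chemokines were low. Cxcl3, another CXCR2 ligand of the cluster, was at 1.00, 1.25 and 0.936 CPM in Ctr1-null + BCS, 1.86, 1.18 and 0.909 CPM in Ctr1-null, and 0.728, 0.378 and 0.130 CPM in wild type, and its log2 fold change of 1.37 ± 0.50 in Ctr1-null + BCS against wild type missed the threshold (adjusted p = 0.0880). Cxcl2 did not exceed 0.357 CPM. Cxcl9 and Cxcl11, the other CXCR3 ligands, which flank Cxcl10 at 18558 and 10654 bases, did not exceed 0.165 CPM in any library, wild type included. The log2 fold changes of Cxcl16, Ccl28, Ccl9, Cxcl15, Cxcl17, Ccl24 and Ppbp in that comparison lay between -0.34 and 1.24, and that of Ccl28 came nearest to the threshold (0.73 ± 0.22, adjusted p = 0.0509). There, 3 of the 11 were called higher without wild type replicate 1, Cxcl3 (2.13, adjusted p = 0.0101), Ccl28 (0.86, adjusted p = 0.0241) and Cxcl16 (0.95, adjusted p = 0.00535), and 2 in Ctr1-null against wild type, Cxcl3 (2.45, adjusted p = 0.00984) and Cxcl16 (0.87, adjusted p = 0.0129). Of all genes, 31.0% and 17.3% were called in these fits, in either direction.

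Receptors for these ligands were scarce in the same cells. Of 23 chemokine receptor genes, 9 passed the filter and none was called in any comparison with 9 libraries. The scavenging receptor of CXCL12, Ackr3, was the only one at more than a few CPM, with 24.1, 18.4 and 31.4 CPM in Ctr1-null + BCS, 10.9, 29.5 and 32.1 CPM in Ctr1-null, and 23.2, 8.87 and 8.42 CPM in wild type. Wild type replicate 1 again lay apart from the other wild type libraries, and without it Ackr3 was called higher, by 1.501 in Ctr1-null + BCS (adjusted p = 0.0238) and 1.48 in Ctr1-null (adjusted p = 0.0394) against wild type. Cxcr3, the receptor of CXCL10, had 0 counts in all libraries, and Cxcr4, the receptor of CXCL12, did not exceed 0.127 CPM.

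Of the 15 cytokine receptor genes, all passed the filter and none was called, Il6st, the shared signalling chain of the IL-6 family, being highest at 259 to 491 CPM. Of 8 genes for enzymes that cut chemokines or CSF1, 5 passed the filter and none was called, with Mmp2 at 412 to 736 CPM and Mmp14 at 275 to 399 CPM. Of 9 genes for mRNA decay and signal attenuation, which limit the lifetime of cytokine transcripts, none was called, Zfp36l2 being highest at 241 to 371 CPM. Among these 3 lists, leaving out wild type replicate 1 gave in Ctr1-null + BCS against wild type 3 called cytokine receptors (2 higher and 1 lower), 1 processing enzyme (lower) and 1 attenuator (lower), and in Ctr1-null against wild type 2 (both higher), 2 (1 higher and 1 lower) and 1 (higher). The shares over all genes in these fits were 31.0% and 17.3%.

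Other cytokines and the regulators upstream of chemokines held the called genes. Over 9 lists with 152 genes chosen by role, 111 passed the filter. Of these, 15 passed the test in Ctr1-null + BCS against wild type, 8 higher and 7 lower, which is 13.5% of those tested and near the 15.8% of all genes. Their median log2 fold change was 0.15, against 0.0065 for all genes. In each of the other comparisons 0 passed by edgeR. In Ctr1-null against wild type 23 had an unadjusted p under 0.05, against 17.6% of all genes, and 9 were called by DESeq2, against 6.49%. In Ctr1-null + BCS against Ctr1-null these counts were 11, against 14.7% of all genes, and 1, against 4.25%.

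The count of 15 rested on single libraries. It came to 2 when Ctr1-null + BCS replicate 1 or 3, or wild type replicate 2 or 3, was left out. Leaving out Ctr1-null replicate 2 or 3 gave 9, and leaving out wild type replicate 1 gave 37, where 31.0% of all genes were called. The count over all genes moved as well, between 568 and 5840 with a library left out. Of the 15, 14 were still called without wild type replicate 1 and all 15 had the same direction, Jund being the one lost. Only Il18 and Tmem173 kept their call in every alternative run.

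Of 15 other cytokine genes tested, 3 rose in Ctr1-null + BCS against wild type and none fell, which is 20.0% of them, against 15.8% of all genes. With wild type replicate 1 left out, 8 were called higher and 1 lower there, and 5 higher and 0 lower in Ctr1-null against wild type. Of all genes, 31.0% and 17.3% were then called. The lists were chosen with earlier results of these data known, so nothing is read from their shares. Il18, an inflammasome-processed cytokine that induces interferon gamma, was at 2.57, 2.10 and 2.53 CPM in Ctr1-null + BCS, 1.05, 1.88 and 1.55 CPM in Ctr1-null, and 0.749, 0.919 and 0.632 CPM in wild type. The 3 groups did not overlap, and Ctr1-null + BCS exceeded wild type by a log2 fold change of 1.65 ± 0.25 (adjusted p = 0.00663). Il15 and Il7, which maintain lymphocytes, rose by 0.97 ± 0.27 (adjusted p = 0.0409) and 0.58 ± 0.16 (adjusted p = 0.0399) on the log2 scale. These log2 fold changes without wild type replicate 1 were 1.64 for Il18, 1.12 for Il15 and 0.53 for Il7 (adjusted p = 0.00419, 0.0199 and 0.0484). The most abundant, Mif and Clcf1, had log2 fold changes of -0.26 and 0.19 and were not called, but passed without that library at -0.39 (adjusted p = 0.0458) and 0.27 (adjusted p = 0.0167).

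Among 20 genes for NF-kB subunits and their regulators, 4 fell and 1 rose in Ctr1-null + BCS against wild type. Of all genes, 7.28% were called lower and 8.56% higher there. With wild type replicate 1 left out, 6 of the list were called lower and 1 higher in this comparison. In Ctr1-null against wild type 1 was then called lower and 1 higher. The shares over all genes in these fits were 31.0% and 17.3%. Nfkb1, which encodes p105 and p50, was at 62.7, 67.4 and 57.3 CPM in Ctr1-null + BCS, 69.1, 72.6 and 63.2 CPM in Ctr1-null, and 72.0, 99.3 and 106 CPM in wild type. The chelator-treated libraries were all below wild type, and wild type replicate 1 lay within the Ctr1-null range. The log2 fold change was -0.57 ± 0.14 (adjusted p = 0.0242), and -0.72 (adjusted p = 0.00107) without wild type replicate 1.

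The other genes of this list that fell were Nfkb2, for p100 and p52 (-0.38 ± 0.10, adjusted p = 0.0321), Map3k14, for the kinase NIK of the non-canonical pathway (-0.44 ± 0.11, adjusted p = 0.0288), and Ikbkb, for IKK beta (-0.23 ± 0.06, adjusted p = 0.0422). Myd88, the adaptor of Toll-like and interleukin-1 receptors, rose by 0.29 ± 0.08 (adjusted p = 0.0422). Leaving out wild type replicate 1 gave -0.46 for Nfkb2, -0.47 for Map3k14, -0.20 for Ikbkb and 0.33 for Myd88 (adjusted p = 0.00926, 0.0190, 0.0455 and 0.0152). Rela, which encodes the p65 subunit, was among the most abundant of the list and had a log2 fold change of 0.037 ± 0.10.

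Among 15 interferon regulatory and nucleic acid sensing genes, 3 fell and 2 rose in the same comparison, or 33.3%, against 15.8% of all genes. With wild type replicate 1 left out, 5 were called lower and 2 higher there, and 3 lower and 1 higher in Ctr1-null against wild type. Of all genes, 31.0% and 17.3% were then called. Tmem173, which encodes the DNA-sensing adaptor STING, was at 29.4, 30.2 and 29.2 CPM in Ctr1-null + BCS, 28.9, 38.5 and 34.8 CPM in Ctr1-null, and 44.9, 43.4 and 46.2 CPM in wild type. All 6 null libraries were below wild type, and wild type replicate 1 was within the range of its group. The log2 fold change in Ctr1-null + BCS against wild type was -0.60 ± 0.10 (adjusted p = 0.00846), or -0.61 (adjusted p = 0.00427) without wild type replicate 1, and in Ctr1-null against wild type -0.40 ± 0.10 (adjusted p = 0.125), which passed without that library (-0.40, adjusted p = 0.0368).

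Cgas, whose product makes the cyclic dinucleotide that STING senses, fell by 0.78 ± 0.22 on the log2 scale (adjusted p = 0.0433), although its groups overlapped, and Tbk1, the kinase downstream of STING, had a log2 fold change of -0.34 ± 0.08 (adjusted p = 0.0244). Irf5, a transcription factor of inflammatory cytokine genes, rose by 2.03 ± 0.46 (adjusted p = 0.0203), at 5.33, 4.51 and 5.60 CPM in Ctr1-null + BCS, 3.57, 2.48 and 5.51 CPM in Ctr1-null, and 2.33, 0.730 and 0.706 CPM in wild type. Wild type replicate 1 had the highest Irf5 of its group, and without it the log2 fold change was 2.83 (adjusted p = 0.000987). Ikbke, for the kinase IKK epsilon, rose by 0.71 ± 0.19 (adjusted p = 0.0345). Once wild type replicate 1 was left out, the values were -0.99 for Cgas, -0.40 for Tbk1 and 0.81 for Ikbke (adjusted p = 0.00422, 0.00525 and 0.0179). Cgas and Myd88 were named after their values were seen.

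Of 12 genes for AP-1, C/EBP and STAT3 factors, Fosb (0.74 ± 0.21, adjusted p = 0.0408) and Jund (0.37 ± 0.11, adjusted p = 0.0488) rose in Ctr1-null + BCS against wild type and none fell. That is 16.7% of the list, against 15.8% of all genes. With wild type replicate 1 left out, 5 were called higher and 0 lower there, and 3 higher and 1 lower in Ctr1-null against wild type. Of all genes, 31.0% and 17.3% were then called. The Jund call is the closest to the threshold of those named and was lost with DESeq2 size factors in edgeR and without wild type replicate 1 (0.29, adjusted p = 0.0726). The adjusted p of Jund reached 0.183 with another library left out and 0.0630 with every library kept. Fosb was 0.79 (adjusted p = 0.0316) without that library but lost its call in other runs. Its adjusted p reached 0.154 with a library left out and 0.0885 with every library kept.

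**Figure D4:**
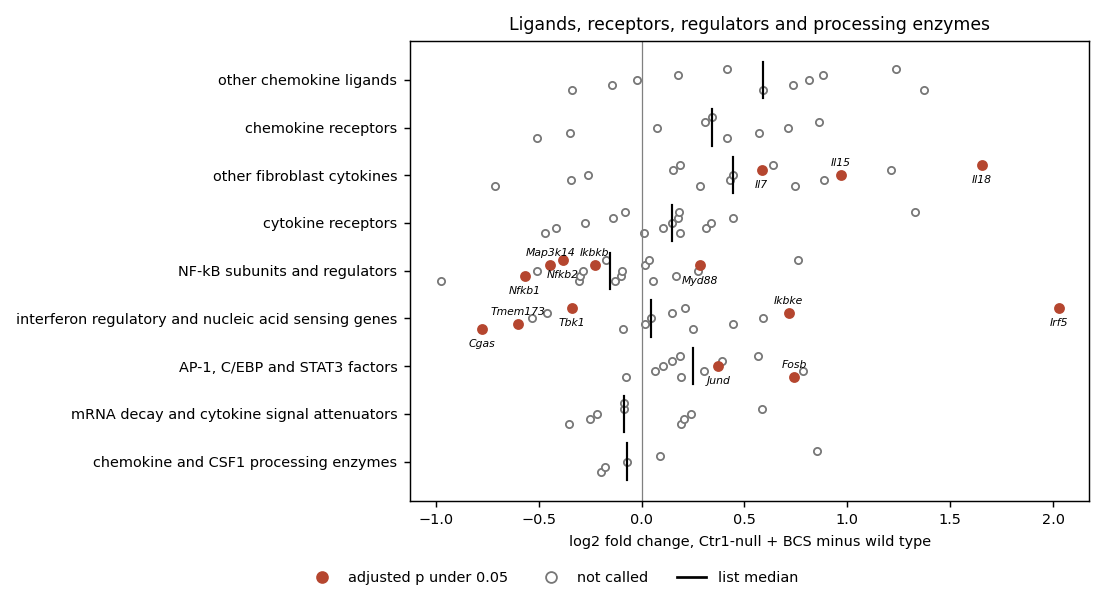
Log2 fold change in Ctr1-null + BCS minus wild type (x axis) of the genes that passed the filter in the 9 role lists, with 1 point per gene, filled where adjusted p is under 0.05, and the list median as a line. The vertical offset within a list only separates points. With all 9 libraries no chemokine ligand or receptor is filled, and filled points lie on both sides of 0 among the NF-kB and the interferon regulatory genes.

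Markers of macrophages, blood and endothelium were low in sum, and those of epithelium were not. Of 13 macrophage and blood markers, Adgre1, Tyrobp, C1qa and C1qb had 0 counts in all libraries and 11 were under 1 CPM throughout. The list summed to 18.7 to 25.9 CPM in Ctr1-null + BCS, 15.6 to 21.4 CPM in Ctr1-null and 11.2 to 18.4 CPM in wild type, and its most abundant genes were Cd68, which fibroblasts also express, at 5.24 to 20.7 CPM, and Cd14. The 7 endothelial markers summed to 23.8 to 32.0 CPM in Ctr1-null + BCS, 26.1 to 33.9 CPM in Ctr1-null and 27.5 to 38.1 CPM in wild type, with Cldn5 at 0. The highest were Kdr, with means of 15.69, 20.27 and 20.25 CPM in these groups, and Tek, with 11.8, 8.15 and 10.4 CPM. Pecam1 stood at 2.68 CPM in Ctr1-null + BCS replicate 1 and at 0.246 to 0.409 CPM in the other libraries. The 7 epithelial markers summed to 130 to 166 CPM in Ctr1-null + BCS, 153 to 199 CPM in Ctr1-null and 167 to 193 CPM in wild type, mostly Krt19 at 125 to 193 CPM, a keratin gene whose log2 fold change in Ctr1-null + BCS against wild type was -0.30 (adjusted p = 0.107). Cldn7 was called higher in that comparison (1.42, adjusted p = 0.0169), and at 1.90 (adjusted p = 0.000641) without wild type replicate 1. Krt18 was at 1.95, 1.70 and 1.77 CPM in Ctr1-null + BCS, 3.65, 2.52 and 0.847 CPM in Ctr1-null, and 1.79, 7.05 and 8.40 CPM in wild type, with a log2 fold change of -1.67 (adjusted p = 0.0793) that came to -2.10 (adjusted p = 0.00690) without wild type replicate 1. Wild type replicate 1 thus lay with the null libraries for Krt18. Cd68 was not called with 9 libraries (1.13, adjusted p = 0.0560) and was without that library (1.57, adjusted p = 0.00592). The part of these other markers in the members' values was not tested.

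For 9 members, all but Il6, the 3 genes whose log2 CPM across the 9 libraries was most like theirs, among genes with at least 5 CPM on average, were outside the lists above. They are named for 6 of these. For Cxcl10 they were Erlin2 (Pearson r = 0.990), Sgpl1 and Rabl2, and for Ccl5 Megf6 (r = 0.990), Efna1 and Sertad4. For Ccl2 they were Brca1 (r = 0.982), Kif23 and Dhx9, for Ccl7 Nudcd1 (r = 0.976), Nt5dc1 and Hsdl1, for Cxcl5 Cap2 (r = 0.988), Xylt1 and Adora2a, and for Cxcl12 Fchsd1 (r = 0.988), C1qtnf6 and Pcdhb17. Megf6 averaged 1.98 CPM in Ctr1-null + BCS, 1.32 CPM in Ctr1-null and 16.7 CPM in wild type, a wider gap than that of Ccl5. Erlin2 averaged 85.3 CPM in Ctr1-null + BCS, 85.1 CPM in Ctr1-null and 99.8 CPM in wild type, a far smaller fold than that of Cxcl10. The coefficient does not measure the size of a change. These are the highest of 10323 or 10324 coefficients per member over 9 libraries that share the 3 groups, and they describe likeness of pattern only.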

How the data were processed

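Libraries were made with an Illumina TruSeq RNA kit, per the labels. The submitters' processing notes list the build GRCm38 and the tools FastQC, STAR, Salmon and DESeq2, with neither version nor role. The authors deposited estimated counts for each gene, already whole numbers and not normalised, and the tests used these. They also deposited scaled signal values, in which each count is divided by a factor specific to gene and sample, and how the authors made this factor is not stated in the sources used here. That table served only to recover these factors.

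The 10 members, the role lists and the marker lists were chosen with earlier results of these data known. Rows were matched to GENCODE M21 by Ensembl identifier (52566 of 52661 rows). Counts were filtered (filterByExpr, minimum count 10, minimum total 15), TMM-scaled and fitted over all 9 libraries with edgeR 4.0.16 in R 4.3.3 (quasi-likelihood, 6 residual degrees of freedom). The 2-sided p-values were adjusted by Benjamini and Hochberg over all genes tested and called under 0.05. The SE was obtained as log2 fold change over the root of the F statistic. The fit was tested on simulated data. Intervals are 95%. The floor of 3 counts covers counting error alone, because reads lacking molecular identifiers can be copies of 1 molecule.

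Alternatives were DESeq2 size factors or the authors' factors in edgeR, no filter, at least 1 CPM in 3 libraries, DESeq2 1.42.0, only the groups compared, a replicate block and leaving out each library. DESeq2 gave no adjusted p to some low genes, which stay out of its shares. Genes of a list were named if called, up to 4 a list and comparison by smallest p, or if among its 2 highest. Genes named only as low or silent, the levels of Megf6 and Erlin2, Cgas, Myd88 and Pdgfra were picked after the values were seen. The 3 genes most like each member were found for all 10 and are named for 6. Figures were drawn with matplotlib 3.10.9.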

Additional observations from a re-analysis of the deposited data

How the results depend on the processing

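In Ctr1-null against wild type, 2 genes were called, against 4 with DESeq2 size factors, 4 with the authors' factors, 265 with no filter, 4 with the stricter filter, 991 by DESeq2, 1 with only the groups compared and 1 to 3254 with a library left out. Of the members 0 were called, against 2 (Cxcl10 and Ccl5) with no filter, 2 by DESeq2 and 0 to 5 with a library left out. Of the related genes 0 were called, against 1 with no filter, 9 by DESeq2 and 0 to 23 with a library left out. In Ctr1-null + BCS against Ctr1-null, 10 genes were called, against 114 with no filter, 621 by DESeq2 and 0 to 183 with a library left out. Of the members 0 were called, against 1 (Ccl2) with no filter, 2 (Ccl2 and Cxcl1) by DESeq2 and 0 with any library left out, and of the related genes 0, against 1 by DESeq2 and 0 to 1 with a library left out. In Ctr1-null + BCS against wild type, 2916 genes were called and 568 to 5840 with a library left out, 4 members and 1 to 7, and 15 related genes, against 7 with the authors' factors, 24 by DESeq2 and 2 to 37 with a library left out. The causes were not tested.

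Fold changes near 0 turned sign. In Ctr1-null against wild type these were Ccl2 (-0.28 to 0.043 with a library left out), Cx3cl1 (-0.29 to 0.12) and Il6 (0.054 with the authors' factors). In Ctr1-null + BCS against Ctr1-null these were Csf1 (-0.25 to 0.019 with a library left out) and Cxcl10 (0.042 with the authors' factors and -0.32 to 0.16 with a library left out). In Ctr1-null + BCS against wild type it was Cxcl1 (-0.32 to 0.21, the highest without wild type replicate 1). Il6 did not pass the stricter filter and has no value there.

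Samples with the same replicate number did not deviate together (correlations of deviations from group means from -0.319 to 0.275), so the numbers were not taken as pairs. A replicate block gave 1 gene called in Ctr1-null against wild type, 2 in Ctr1-null + BCS against Ctr1-null, and 1543 genes and 5 related genes in Ctr1-null + BCS against wild type, and turned the log2 fold change of Cxcl10 between the null groups to 0.080.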
